A study of Mus musculus with 40 samples.

Results

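WUSTL0717 was compared with vehicle in the duodenum of mice after small bowel resection (SBR), by RNA sequencing. The comparison used 8 duodenal libraries, chosen by their titles, out of 40 libraries in the series: 4 from SBR mice given WUSTL0717 and 4 from SBR mice given vehicle. The 3 duodenal libraries of sham-operated mice given vehicle were fitted with them and are given beside the values. All mice were wild type C57BL/6 males aged 8 weeks at surgery. Dosing began 3 weeks after the operation and ran daily for 7 weeks, by mouth, with WUSTL0717 at 30 mg/kg. The sham group received vehicle only, so WUSTL0717 in mice with an intact bowel was not measured here. The operation left the duodenum in place, and the duodenum therefore lies upstream of the join. The labels give no pooling and no link between a duodenal and an ileal library of one mouse.

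WUSTL0717, an amide analog of GW3965 studied as a gut-restricted compound, is an agonist of the liver X receptors (LXR), nuclear receptors that bind oxidized forms of cholesterol and switch on genes that move sterols out of cells. LXR also raise genes of fatty acid synthesis, through the transcription factor SREBP1 and directly. In the duodenum, where most dietary fat is first met, enterocytes take up fatty acids, oxidize some of them in mitochondria and peroxisomes, and pack the rest into chylomicrons, while the cytochrome P450 and conjugating enzymes of the same cells handle foreign and oxidized compounds. A related nuclear receptor, PPARα, is activated by fatty acids and is known for raising the genes of fatty acid oxidation.

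The deposited values are log2 TPM, a length-scaled share of all transcripts, after a batch correction, for 15958 genes, and the read totals behind them are not known, so the precision set by depth is unknown. The labels put all intestinal libraries in one batch and all liver libraries in another, and the study's methods describe the correction as one for batch effects between experimental groups, without naming the batches used. A correction of this kind shifts and rescales each gene separately within a batch. In 885 genes, 2 or more of the 22 intestinal libraries share the gene's lowest value, and these shared values lie between -1.69 and 5.29, with 30 of them at 0. In 560 of these genes a duodenal WUSTL0717 library and a duodenal vehicle library share the lowest value, and in 558 a duodenal and an ileal library do. Lowest values tied within one intestinal group lay at another value in 0 genes, so these groups were not shifted apart in the genes where it could be seen. Levels of single genes were therefore compared between libraries, and a log2 fold change is a difference on this corrected scale. Sums and shares of TPM over several genes were taken from the corrected values, so the weight of each gene in them is uncertain, and they are given only to compare libraries. Within one batch, such a correction does not alter the order of the libraries for a gene. The 10 RNAs with the highest values, led by the noncoding RNAs Gm23935 and CT010467.2, held between 33.3% and 65.4% of the summed TPM of a duodenal library. All 8 enterocyte markers were in the table and tested. The Brunner gland markers *Muc6* and *Tff2*, which set the duodenum apart from the ileum, summed to between 2.84 and 914 TPM per library, and the lowest sum was in SBR vehicle library 3, so the libraries differ widely in these transcripts. In such bulk samples, fewer cells of a type and less RNA per cell cannot be told apart.

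The test covered the 15093 genes that averaged 1 or more on the log2 scale over the 11 duodenal libraries. Of these, 39 (0.258%) differed between WUSTL0717 and vehicle at a limma adjusted p under 0.05 (Benjamini-Hochberg). WUSTL0717 libraries were higher in 38 of them (0.252% of the genes tested) and lower in 1, *Reg3b* (0.00663%). The genes that rose encode a fatty acid desaturase (*Scd1*) and its neighbour *Scd3*, the sterol exporter *Abca1*, enzymes of peroxisomal and mitochondrial fatty acid metabolism such as *Decr2* and *Acot2*, fatty acid ω-hydroxylases of the *Cyp4a* cluster, and enzymes of detoxification such as *Cyp2c29*, *Ces2a* and *Ephx1*. Their log2 fold changes lay between 1.67 and 6.34, where the median over all genes tested was 0.04. In all 39 genes the 4 WUSTL0717 libraries did not overlap the 4 vehicle libraries, as in 476 of all genes tested (3.15%), of which 318 (2.11%) were higher and 158 (1.05%) lower. In the 38 genes that rose, the WUSTL0717 libraries were also above every sham library. At an unadjusted p under 0.05, 802 genes differed (5.31%), 553 of them higher (3.66%) and 249 lower (1.65%). For a single gene, 4 against 4 libraries give an exact two-sided permutation p of 0.0286 at the least, over 70 splits, and every gene without overlap has this p. If the groups did not differ, that share of all genes would be expected without overlap, near the 3.15% seen. The 5.31% at an unadjusted limma p under 0.05 was likewise near the share expected. A lack of overlap in an uncalled gene is therefore given as a value only.

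**Figure D1:**
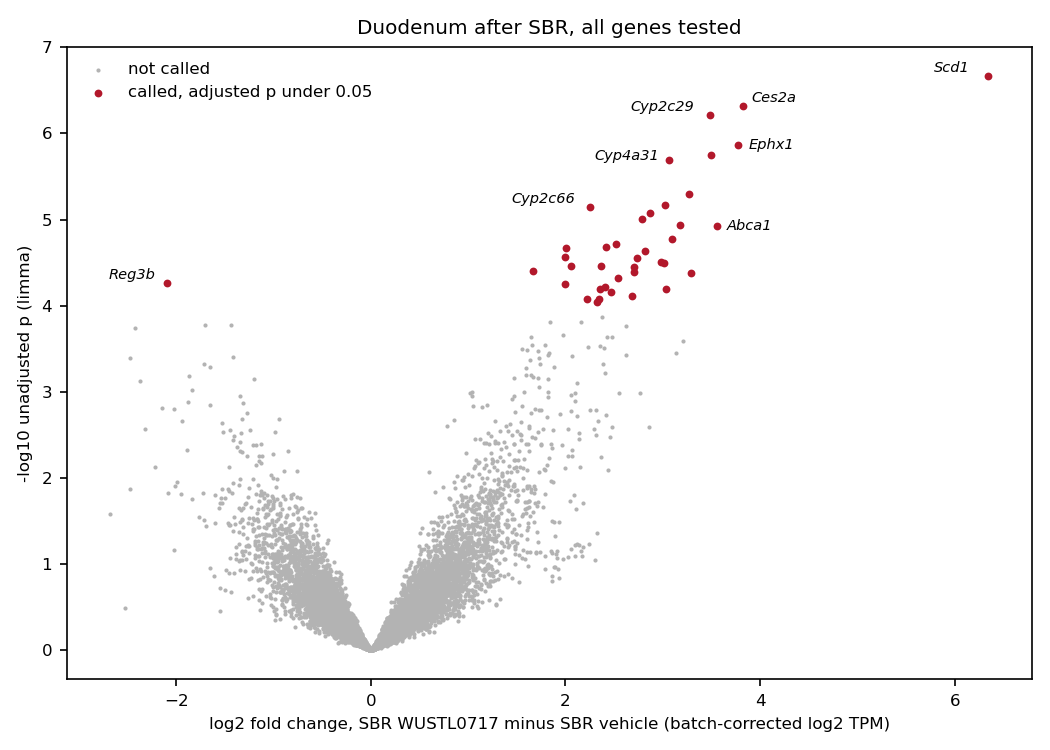
Log2 fold change of each gene tested in the duodenum after SBR (x axis, WUSTL0717 minus vehicle, 4 libraries each) against the -log10 of its unadjusted limma p (y axis). Red points are the 39 genes called at an adjusted p under 0.05: 38 lie on the higher side and *Reg3b* alone on the lower side.

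How many genes were called depended on the fit and on single libraries. Without the sham libraries in the fit, 11 genes passed, all of them higher and among the 39, and under quantile normalization 17 passed, 13 of them among the 39. With 1 of the 8 libraries left out, between 7 (without WUSTL0717 library 3) and 28 (without WUSTL0717 library 1) genes passed. The count was 16 without WUSTL0717 library 2, 9 without WUSTL0717 library 4, 13 without vehicle library 1, 12 without vehicle library 2, 12 without vehicle library 3 and 16 without vehicle library 4. *Scd1*, *Ces2a*, *Cyp2c29*, *Ephx1*, *Acot1* and *Cyp4a31* passed in all 8 of these fits, and 12 of the 36 called genes other than the predicted genes passed in none of them. The 12 were *Rgn*, *Acaa1b*, *Ugt1a9*, *Reg3b*, *Slc25a20*, *Retsat*, *Pxmp4*, *Aldh1a1*, *Paqr7*, *Hsd17b4*, *Cyp2b10* and *Ugt2b5*, with limma adjusted p-values between 0.0524 and 0.173 in these fits. When the libraries were rescaled without the 10 most abundant RNAs, an alternative chosen after seeing the data, 14 genes were higher and 6 lower, and the median log2 fold change of all genes moved to -0.27.

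RefSeq promoter windows (GRCm38.p6, 250 bases before to 50 after the start site) were at hand for 29 of the 39 called genes. Those of *Abca1*, the sterol exporter that rose, of *Cyp2c29* and *Ces2a*, the pair of genes with a window whose p was smallest, and of *Reg3b*, the gene that fell, are printed 5′ to 3′ on the strand of the gene. Capitals mark AGGTCA, the half-site that LXR, PPARα and other nuclear receptors bind, and TATAAA, the TATA box, each searched on both strands.
*Abca1*, chr4:53159846-53160145, minus strand: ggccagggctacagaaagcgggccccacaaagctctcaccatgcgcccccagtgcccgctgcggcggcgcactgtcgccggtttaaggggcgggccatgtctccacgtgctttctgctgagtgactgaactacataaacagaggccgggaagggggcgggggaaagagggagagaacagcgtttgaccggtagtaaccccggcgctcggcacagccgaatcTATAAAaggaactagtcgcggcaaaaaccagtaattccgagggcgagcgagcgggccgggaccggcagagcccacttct
*Cyp2c29*, chr19:39286835-39287134, plus strand: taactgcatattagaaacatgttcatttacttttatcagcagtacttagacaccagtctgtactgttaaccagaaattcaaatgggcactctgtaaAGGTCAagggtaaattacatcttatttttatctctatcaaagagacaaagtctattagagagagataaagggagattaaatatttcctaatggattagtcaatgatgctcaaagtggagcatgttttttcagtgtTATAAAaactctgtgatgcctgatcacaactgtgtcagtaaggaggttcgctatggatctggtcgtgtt
*Ces2a*, chr8:104733753-104734052, plus strand: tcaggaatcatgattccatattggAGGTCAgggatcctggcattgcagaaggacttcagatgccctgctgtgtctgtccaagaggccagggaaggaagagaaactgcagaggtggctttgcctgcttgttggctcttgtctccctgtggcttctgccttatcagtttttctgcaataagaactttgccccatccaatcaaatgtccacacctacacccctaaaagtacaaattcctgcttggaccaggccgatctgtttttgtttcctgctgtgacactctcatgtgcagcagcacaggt
*Reg3b*, chr6:78370635-78370934, plus strand: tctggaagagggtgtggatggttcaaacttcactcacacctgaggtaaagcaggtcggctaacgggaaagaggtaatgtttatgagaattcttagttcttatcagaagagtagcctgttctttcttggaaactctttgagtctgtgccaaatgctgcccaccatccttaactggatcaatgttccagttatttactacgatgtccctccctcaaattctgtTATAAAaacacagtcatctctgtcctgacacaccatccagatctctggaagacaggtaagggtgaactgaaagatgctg

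AGGTCA was in the window of 7 of the 29 called genes (24.1%) and in 15.7% of the 9388 tested genes with a window. The 7 genes were *Acot3*, *Cd36*, *Ces2a*, *Cyp2c29*, *H2-Q10*, *Ugt1a9* and *Ugt2b5*. TATAAA was in 9 of the 29 and in 941 of the 9388. AGGTCA repeated in the same direction with a gap of 4 bases, the usual LXR arrangement, was in 0 of the 9388 windows, and with a gap of 1 base, the usual PPARα arrangement, in 6 of them (0.0639%) and in 0 of the 29. Only exact repeats were searched, so repeats with any other letter were not counted. Exact repeats were so rare among all windows that the called genes could not be told from the rest by them. All of these searches are matches of letters in 300 bases and no measure of binding.

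The sterol exporters are the best known LXR targets. *Abca1* (GRCm38 chromosome 4, 53030787 to 53159895), which loads cholesterol and phospholipid onto apolipoprotein A1, stood at 5.46, 7.23, 6.14 and 7.43 log2 TPM in WUSTL0717 libraries 1 to 4. It stood at 2.66, 2.56, 4.12 and 2.70 in vehicle libraries 1 to 4 and at 2.70, 2.35 and 2.57 in the sham libraries. The groups did not overlap, and vehicle library 3 lay above the other vehicle and all sham libraries. *Abca1* rose by 3.55 on the log2 scale (SE 0.50, limma adjusted p = 0.0136), and it passed again in 2 of the 8 fits with 1 library left out (adjusted p up to 0.0658, without WUSTL0717 library 4).

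*Abcg5* and *Abcg8* encode the subunits of the transporter that returns sterols to the gut lumen. *Abcg5* lay between 6.82 and 8.44 with WUSTL0717 and between 3.96 and 6.91 with vehicle, a log2 difference of 2.30 that did not pass (SE 0.61, limma adjusted p = 0.288). *Abcg8* differed by 2.07 (SE 0.62, adjusted p = 0.405), and *Abcg1*, a sterol exporter of many cell types, by 1.18 (SE 0.37, adjusted p = 0.471). In all 3 genes vehicle library 3 was the highest vehicle library and overlapped the WUSTL0717 group. Of the 4 exporters, 1 was called and all 4 were at an unadjusted p under 0.05. Their median was 2.18.

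Of 8 other LXR targets of sterol and phospholipid handling that were tested, 0 were called and 3 had an unadjusted p under 0.05, all higher, with a median of 0.68. *Mylip*, whose product marks the LDL receptor for breakdown, was at 4.36, 3.22, 3.03 and 3.24 with WUSTL0717 and at 1.84, 1.69, 2.18 and 1.30 with vehicle (log2 difference 1.71, limma adjusted p = 0.0864). *Lpcat3*, which puts polyunsaturated chains into phospholipids, was at 6.99, 7.50, 7.47 and 8.56 with WUSTL0717 and at 6.07, 4.97, 5.78 and 5.46 with vehicle (log2 difference 2.06, adjusted p = 0.172). Both genes separated the groups without overlap. The receptors themselves did not pass: *Nr1h3* (LXRα) differed by 0.56 (SE 0.48, adjusted p = 1) and *Nr1h2* (LXRβ) by -0.17 (SE 0.61, adjusted p = 1), with overlapping groups. The sign for *Nr1h2* turned when vehicle library 1 was left out (0.15). None of 9 receptors, partners and cofactors had an unadjusted p under 0.05.

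Fatty acid synthesis held the strongest single change. *Scd1* (chromosome 19, 44394455 to 44407879), which makes oleate from stearate, stood at 11.42, 11.53, 11.58 and 12.83 log2 TPM with WUSTL0717. It stood at 6.73, 5.28, 4.02 and 5.96 with vehicle and at 6.15, 5.76 and 4.48 in sham. Every WUSTL0717 library lay over 4 log2 units above every other duodenal library, and the lowest library, vehicle 3, had the highest *Abca1* of its group. *Scd1* rose by 6.34 (SE 0.61, limma adjusted p = 0.00306).

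*Scd3* (chromosome 19, 44203269 to 44244016), a desaturase gene in the same cluster, rose by 3.18 (SE 0.45, limma adjusted p = 0.0136). It lay between 3.63 and 6.01 with WUSTL0717 and between 1.02 and 1.83 with vehicle. *Scd2*, which lies between them, was at 6.15, 6.63, 5.68 and 8.39 with WUSTL0717 and at 5.64, 3.47, 3.56 and 3.12 with vehicle, a difference of 2.77 that did not pass (adjusted p = 0.167). These genes share little sequence: 2.58% of the 100-base stretches in *Scd1* transcripts and 2.49% of those in *Scd3* transcripts occur in another gene. WUSTL0717 library 4 was the highest library for all 3 desaturase genes, and it was also the highest for *Srebf1* and *Acacb*.

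*Me1*, which supplies NADPH for fatty acid synthesis, rose by 2.87 (SE 0.39, limma adjusted p = 0.0126), from 5.08 to 6.11 across the vehicle libraries to 8.25 to 8.91 across the WUSTL0717 libraries. *Srebf1*, the transcription factor of this pathway, stood at 6.89, 8.45, 7.79 and 10.33 with WUSTL0717 and at 5.66, 4.97, 5.28 and 5.00 with vehicle. Its groups did not overlap, the spread within the WUSTL0717 group was wide, and the difference of 3.13 did not pass (SE 0.64, adjusted p = 0.0887). The same held for *Acacb*, the acetyl-CoA carboxylase of mitochondria (3.21, SE 0.63, adjusted p = 0.0755). *Fasn*, the fatty acid synthase, was between 5.83 and 7.66 with WUSTL0717 and between 5.01 and 7.78 with vehicle (0.60, SE 0.59, adjusted p = 1). Of 18 genes of fatty acid synthesis tested, 3 were called, all higher, 8 were higher and 0 lower at an unadjusted p under 0.05, and the median was 0.78.

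Cholesterol synthesis and uptake held no call. Of 26 genes tested, 2 were lower at an unadjusted p under 0.05, *Sqle* (-1.10, limma adjusted p = 0.671) and *Mvk* (-1.34, adjusted p = 0.735), enzymes of the sterol pathway. The median was -0.40.

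**Figure D2:**
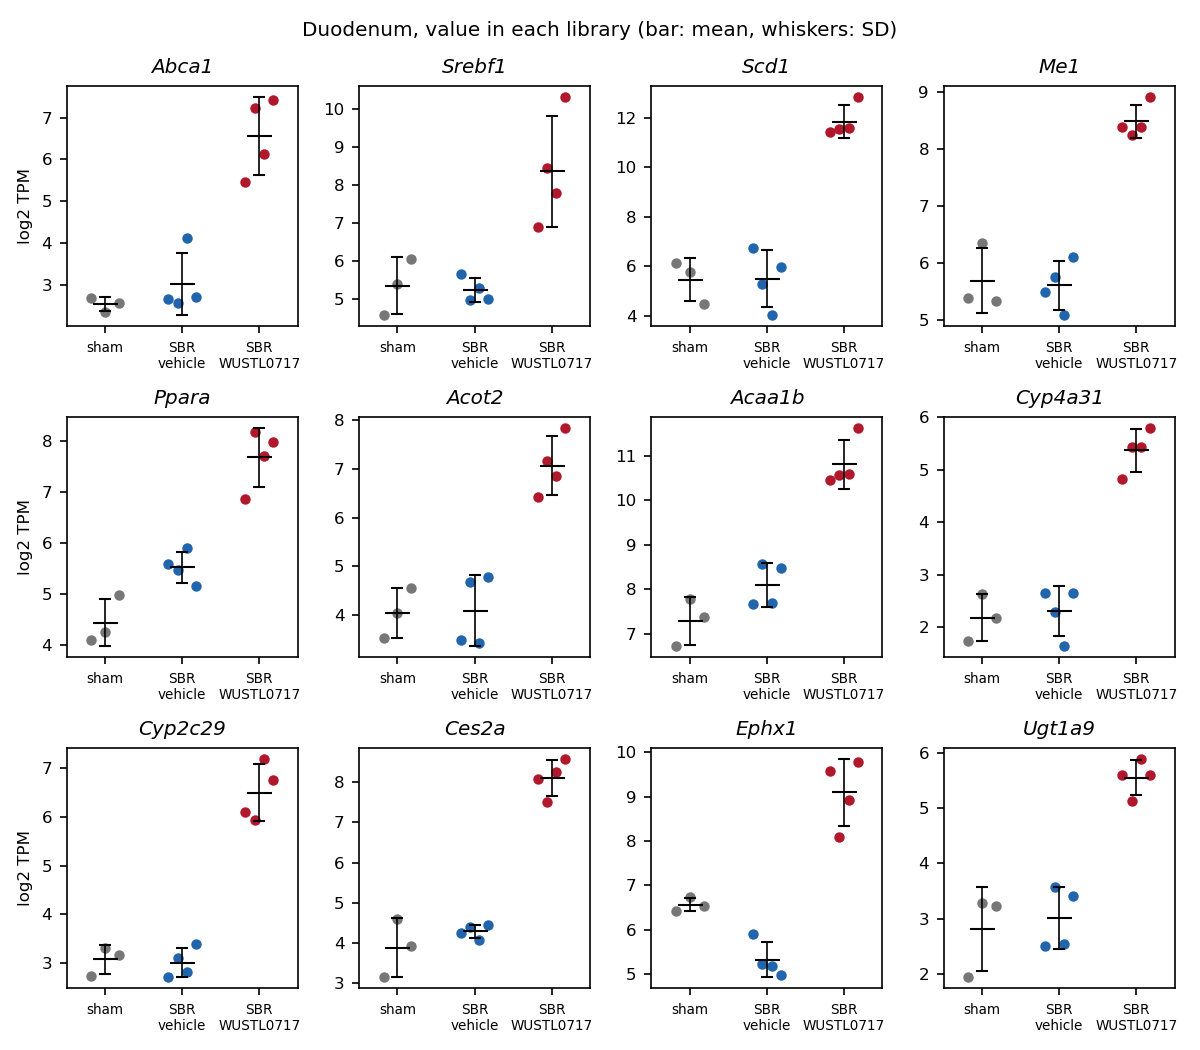
Log2 TPM of 12 genes in each duodenal library (points), by group on the x axis: 3 sham, 4 SBR vehicle and 4 SBR WUSTL0717 libraries. The bar is the mean and the whiskers 1 SD, and axes differ between genes and do not start at 0. In each of these genes the 4 WUSTL0717 points lie above all SBR vehicle and sham points. *Srebf1* and *Ppara* did not pass the adjusted threshold.

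In fatty acid oxidation, genes of the mitochondria, the peroxisomes and the endoplasmic reticulum rose. *Acot2*, a mitochondrial acyl-CoA thioesterase, stood at 6.42, 7.17, 6.85 and 7.85 with WUSTL0717. It stood at 3.49, 4.67, 3.43 and 4.78 with vehicle and at 3.54, 4.04 and 4.57 in sham. The vehicle and sham libraries shared one range, and the WUSTL0717 libraries lay above all of them. *Acot2* rose by 2.98 (SE 0.47, limma adjusted p = 0.0213). *Slc25a20*, the carnitine carrier that brings acyl groups into mitochondria, stood at 5.86, 6.12, 5.98 and 6.53 with WUSTL0717 and at 4.15, 4.06, 3.68 and 4.59 with vehicle. It rose by 2.00 (SE 0.33, adjusted p = 0.0273).

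Of 21 genes of mitochondrial fatty acid oxidation and ketogenesis tested, 3 were called, and all 21 log2 fold changes were above 0, as were 54% over all genes tested. At an unadjusted p under 0.05, 17 were higher and 0 lower, and the median was 1.52. Genes without overlap that did not pass included *Eci1* (2.48, limma adjusted p = 0.0699) and *Eci2* (1.82, adjusted p = 0.09), isomerases for unsaturated chains, *Hadhb* (2.07, adjusted p = 0.0905), a subunit of the trifunctional protein, and *Pdk4* (2.40, adjusted p = 0.0837), which restrains the use of pyruvate. The median over all alternatives and left-out libraries lay between 1.15 and 1.72.

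In peroxisomes, 6 of 17 genes tested were called, all higher, with 13 higher and 0 lower at an unadjusted p under 0.05 and a median of 1.78. *Acaa1b*, a thiolase of the last step of the cycle, stood at 10.45, 10.56, 10.60 and 11.62 with WUSTL0717 and at 7.66, 8.56, 7.70 and 8.49 with vehicle. It rose by 2.70 (SE 0.43, limma adjusted p = 0.0225), with WUSTL0717 library 4 apart from the other 3, and passed in none of the fits with 1 library left out. In *Acaa1b*, 19.3% of the 100-base stretches occur in another gene, its close relative *Acaa1a*. *Decr2*, a reductase for polyunsaturated chains, rose by 2.70 (SE 0.43, adjusted p = 0.0213). *Abcd3*, an importer of fatty acids into the peroxisome, rose by 2.68 (SE 0.46, adjusted p = 0.0323), *Pxmp4*, a peroxisomal membrane protein, by 2.36 (SE 0.40, adjusted p = 0.0284), and *Hsd17b4*, the bifunctional enzyme of the pathway, by 2.35 (SE 0.41, adjusted p = 0.0328). *Acot3*, a peroxisomal thioesterase, rose by 2.00 (SE 0.31, adjusted p = 0.0209) and lay between 2.25 and 3.54 with WUSTL0717 and between 0.68 and 1.43 with vehicle. Vehicle library 1 was at the lowest intestinal value of *Acot3*, 0.68, so its level was near the limit of the table. The log2 fold change of *Acot3* ran from 1.00 to 2.75 over the alternatives.

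The cytosolic thioesterase gene *Acot1* (chromosome 12, 84009490 to 84018371) stood at 5.85, 5.81, 6.29 and 6.73 with WUSTL0717 and at 2.28, 3.54, 2.02 and 2.84 with vehicle. It rose by 3.50 (SE 0.41, limma adjusted p = 0.00508). *Acot1*, *Acot2* and *Acot3* lie within 200000 bases of each other, and between 12.4% and 17.1% of their 100-base stretches occur in another gene. The study counted only uniquely aligned reads, so reads from such stretches may be missing from these values. How many reads this concerns was not measured. Of the 39 called genes, 14 had another called gene within 200000 bases, in the *Acot*, *Ces2*, *Cyp2c*, *Cyp4a* and *Scd* clusters.

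Omega hydroxylation, an oxidation from the far end of the chain in the endoplasmic reticulum, had 5 of 9 genes called, all higher, with a median of 2.41. *Cyp4a31* (chromosome 4, 115563649 to 115579015) stood at 4.81, 5.44, 5.43 and 5.80 with WUSTL0717 and at 2.64, 2.29, 1.63 and 2.65 with vehicle. It rose by 3.07 (SE 0.37, limma adjusted p = 0.00508). *Cyp4f15* rose by 3.27 (SE 0.43, adjusted p = 0.011), *Cyp4a10* by 3.10 (SE 0.45, adjusted p = 0.018) and *Cyp4a32* by 2.41 (SE 0.36, adjusted p = 0.019).

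Their partner *Aldh3a2*, which oxidizes the fatty aldehydes, was nearly constant over the vehicle libraries (6.87, 6.94, 6.87 and 6.90) and stood at 8.92, 9.15, 9.59 and 10.01 with WUSTL0717. It rose by 2.52 (SE 0.38, limma adjusted p = 0.019). The other 4 genes of the list, among them *Cyp4a14*, differed by no more than 0.24. *Cyp4a14* had its lowest value, 4.23, in 11 intestinal libraries, so its level was near the limit of the table. Between 7.33% and 18.2% of the 100-base stretches of *Cyp4a10*, *Cyp4a31* and *Cyp4a32* occur in another gene.

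*Ppara*, the gene of PPARα, was at 6.87, 8.18, 7.71 and 7.99 with WUSTL0717, at 5.58, 5.47, 5.90 and 5.15 with vehicle and at 4.10, 4.25 and 4.97 in sham. The 3 groups did not overlap, and the difference between WUSTL0717 and vehicle was 2.16, just short of the threshold (SE 0.40, limma adjusted p = 0.0555). It passed in 1 of the 8 fits that left out 1 library. Of the 5 genes of PPAR and their coactivators tested, the other 4 had unadjusted p-values of 0.05 or more, and the median was -0.18, with a sign that turned under some alternatives.

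Among known PPAR targets of lipid storage and transport, 3 of 13 were called, all higher, with 9 higher and 0 lower at an unadjusted p under 0.05 and a median of 1.84. Apart from *Acot1*, these were *Cd36*, a fatty acid translocase, which rose by 2.81 (SE 0.43, limma adjusted p = 0.0196), and *Retsat*, a retinol saturase, by 2.41 (SE 0.40, adjusted p = 0.0284). *Cd36* was at 5.54, 5.84, 6.24 and 5.62 with WUSTL0717 and at 2.05, 2.89, 3.59 and 3.45 with vehicle. *Plin2*, the coat protein of lipid droplets, was at 8.22, 9.90, 9.11 and 10.41 with WUSTL0717 and at 7.39, 7.23, 6.42 and 7.07 with vehicle, without overlap (2.38, adjusted p = 0.101). *Angptl4*, an inhibitor of lipoprotein lipase, overlapped between the groups (2.33, adjusted p = 0.258).

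Of 21 genes of lipid absorption and chylomicron assembly, 0 were called, 3 were higher and 0 lower at an unadjusted p under 0.05, and the median was 0.56. *Apoa1*, the apolipoprotein of HDL, was between 13.07 and 14.08 with WUSTL0717 and between 12.55 and 13.52 with vehicle, which overlap (0.63, SE 0.53, limma adjusted p = 1), and its sign turned under quantile normalization (-0.30). *Acsl3*, an acyl-CoA synthetase of lipid droplets, separated the groups (1.88, adjusted p = 0.108).

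Detoxification genes formed the other large group. In the carboxylesterases, 2 of 12 genes tested were called, both higher, 9 were higher and 0 lower at an unadjusted p under 0.05, and the median was 1.59. *Ces2a* (chromosome 8, 104734003 to 104741634), an intestinal esterase that cleaves esters and glycerides, stood at 8.08, 7.51, 8.26 and 8.58 with WUSTL0717 and at 4.24, 4.39, 4.06 and 4.44 with vehicle. It rose by 3.83 (SE 0.40, limma adjusted p = 0.00306). *Ces2b* rose by 2.00 (SE 0.30, adjusted p = 0.019), and *Ces2c* (1.82, adjusted p = 0.131) and *Ces1d* (2.62, adjusted p = 0.0583) separated the groups without passing. In *Ces2a*, 8.13% of the 100-base stretches occur in another gene.

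Of 17 cytochrome P450 genes of families 2 and 3 (with their reductase), 4 were called, all higher, 9 were higher and 0 lower at an unadjusted p under 0.05, and the median was 1.07. *Cyp2c29* (chromosome 19, 39269405 to 39330713) stood at 6.09, 5.94, 7.18 and 6.76 with WUSTL0717, at 2.72, 3.11, 2.83 and 3.40 with vehicle and at 2.75, 3.32 and 3.17 in sham. It rose by 3.48 (SE 0.37, limma adjusted p = 0.00306). *Cyp2c55* rose by 3.01 (SE 0.47, adjusted p = 0.0213), *Cyp2c66* by 2.25 (SE 0.30, adjusted p = 0.012) and *Cyp2b10*, a known target of the xenobiotic receptor CAR, by 2.22 (SE 0.38, adjusted p = 0.0328). *Cyp3a11*, a known target of the xenobiotic receptor PXR, separated the groups narrowly (1.07, adjusted p = 0.902). Of 10 xenobiotic receptors and export pumps, 0 were called and 0 had an unadjusted p under 0.05.

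Among 26 genes of conjugation and of aldehyde or epoxide detoxification, 4 were called and all 26 log2 fold changes were above 0. At an unadjusted p under 0.05, 17 were higher and 0 lower, and the median was 1.33. *Ephx1* (chromosome 1, 180976210 to 181020904), the microsomal epoxide hydrolase, stood at 9.57, 8.10, 8.93 and 9.78 with WUSTL0717. It stood at 5.90, 5.23, 5.17 and 4.99 with vehicle and at 6.43, 6.73 and 6.54 in sham, so the vehicle libraries lay below the sham libraries and the WUSTL0717 libraries above them. *Ephx1* rose by 3.77 (SE 0.43, limma adjusted p = 0.00508).

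*Aldh1a1*, a retinal and aldehyde dehydrogenase, rose by 3.03 (SE 0.51, limma adjusted p = 0.0284), *Ugt1a9* by 2.54 (SE 0.41, adjusted p = 0.0247) and *Ugt2b5* by 2.33 (SE 0.41, adjusted p = 0.0352), the last pair being glucuronosyltransferases. The *Ugt1a* genes share their last exons, and 58.5% of the 100-base stretches of *Ugt1a9* occur in another gene, so its value rests on part of the transcript. In *Ugt2b5* the share is 24.7%, foremost with *Ugt2b38* and *Ugt2b37*. The glutathione transferases *Gstm1* (2.35, adjusted p = 0.0817), *Gstm3* (1.73, adjusted p = 0.154) and *Gstm4* (1.74, adjusted p = 0.102) separated the groups without passing. Of 14 antioxidant genes, 0 were called, 4 were higher and 2 lower at an unadjusted p under 0.05. *Sod1* was higher (1.75, adjusted p = 0.215) and *Gsr*, glutathione reductase, lower (-1.41, adjusted p = 0.307).

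Outside the lists, *Hsd17b11*, a dehydrogenase of lipid droplets, rose by 2.79 (SE 0.39, limma adjusted p = 0.0134), *Rgn*, which encodes regucalcin, by 2.36 (SE 0.37, adjusted p = 0.0213) and *Paqr7*, a membrane progestin receptor, by 2.47 (SE 0.42, adjusted p = 0.0299). Of 17 genes of MHC class I presentation, 14 had log2 fold changes below 0, with a median of -0.65, and 3 were lower and 1 higher at an unadjusted p under 0.05. The lower ones were *Nlrc5*, the class I transactivator (-1.53), *H2-D1*, a classical class I chain (-1.45), and *Tap1*, a peptide transporter (-1.42), of which 0 were called. The higher one, *H2-Q10*, whose product is secreted, was called and rose by 2.74 (SE 0.42, adjusted p = 0.0209). It stood at 9.57, 9.10, 9.76 and 10.69 with WUSTL0717, at 7.08, 6.87, 6.59 and 7.62 with vehicle and at 5.35, 5.54 and 5.73 in sham, so its 3 groups did not overlap. The other 3 called genes were the predicted genes Gm6951, Gm6831 and Gm7049, and 23.4% of the 100-base stretches of Gm7049 occur in other transcripts, most of them of *Me1*.

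**Figure D3:**
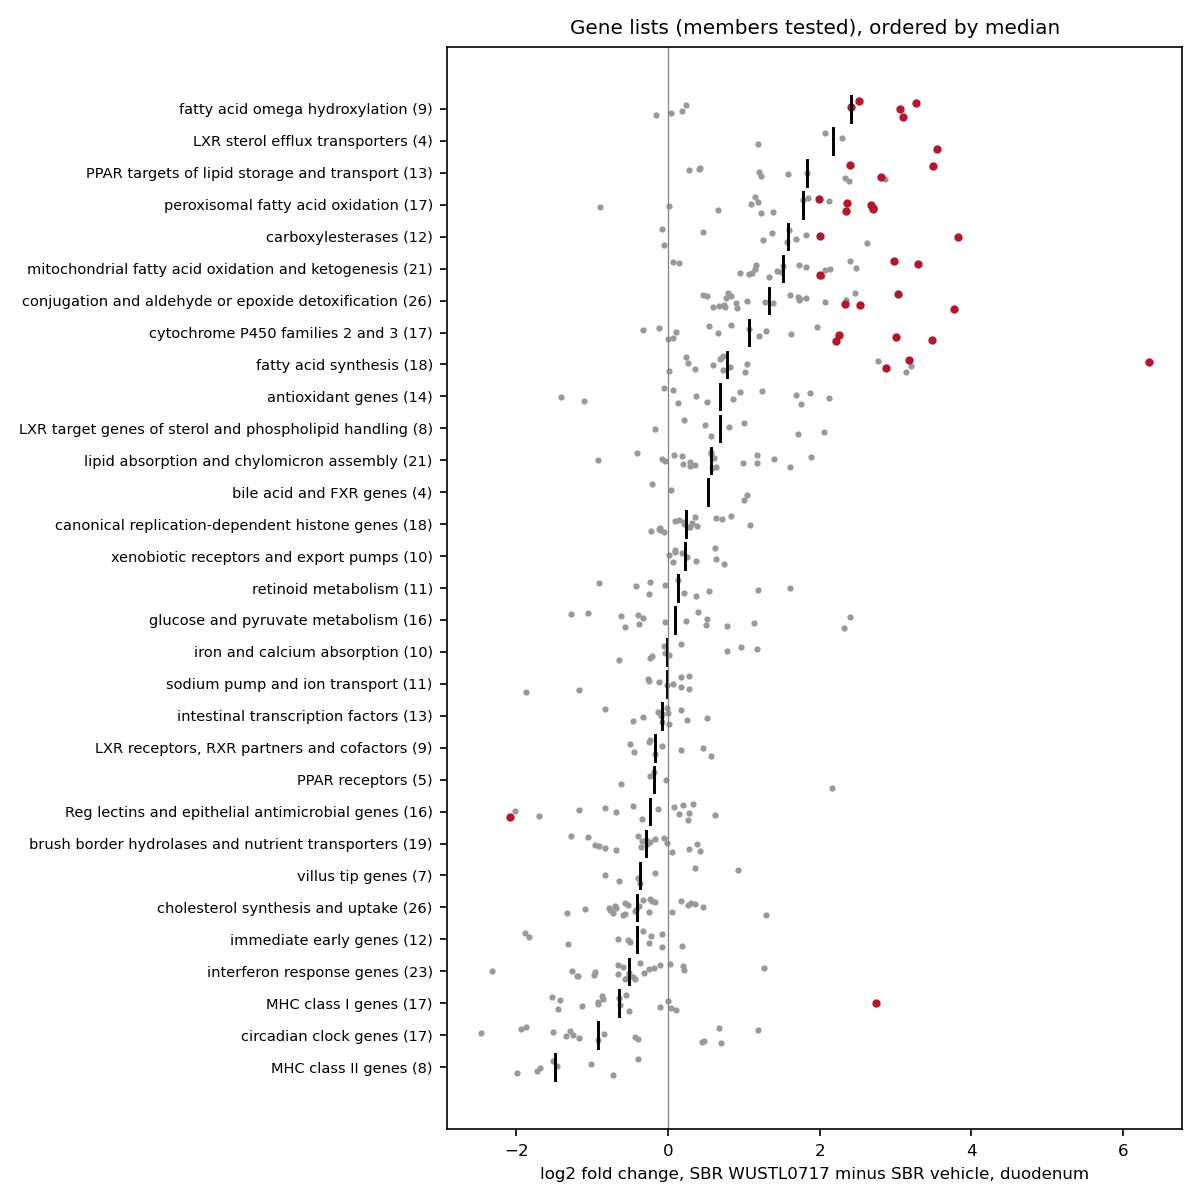
Log2 fold change (x axis, WUSTL0717 minus vehicle in the duodenum after SBR) of each member tested of 31 gene lists (rows, with the number of members). Red points are genes called at an adjusted p under 0.05 and black lines are list medians: medians run from -1.49 for MHC class II genes to 2.41 for fatty acid ω-hydroxylation.

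Markers of other cell types were examined beside these groups. The summed TPM of the 8 enterocyte markers lay between 14729 and 23418 in the vehicle libraries and between 23375 and 44139 in the WUSTL0717 libraries, so the highest vehicle library just overlapped the lowest WUSTL0717 library. Of these markers, *Fabp1* (1.23, limma adjusted p = 0.388) and *Fabp2* (1.59, adjusted p = 0.729), which are fatty acid binding proteins and known PPARα targets, had unadjusted p-values under 0.05, and *Sis*, sucrase-isomaltase, differed by 0.05. Of 19 brush border hydrolases and nutrient transporters, 0 were called and 4 were lower at an unadjusted p under 0.05, among them the glucose transporter *Slc5a1* (-1.06, adjusted p = 0.775).

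All 10 pancreatic acinar markers in the table were higher with WUSTL0717, with a median of 2.10 and 0 called or at an unadjusted p under 0.05. Their summed TPM was 964, 605, 220 and 2003 in the WUSTL0717 libraries, 27.3, 1146, 124 and 138 in the vehicle libraries and 1726, 787 and 114 in sham, which overlap. The 4 pancreatic islet markers were not among the genes of the table. The 7 T cell and innate lymphocyte markers tested all had log2 fold changes below 0, with sums between 15.3 and 35.3 against 29.6 and 42.1, and the 7 hepatocyte markers overlapped between groups. The 4 gastric markers in the table summed to 441, 1.22, 2.86 and 1.94 TPM with WUSTL0717 and to 660, 783, 0.248 and 2.94 with vehicle. In sham they summed to 643, 1047 and 933. Each SBR group thus held libraries with high and with low sums, whereas all sham sums were high. What part these tissues have in the differences was not tested.

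The gene that fell, *Reg3b* (chromosome 6, 78370657 to 78373466), encodes a secreted antibacterial lectin. It stood at 3.89, 4.73, 4.60 and 4.34 with WUSTL0717, at 6.34, 6.15, 6.65 and 6.77 with vehicle and at 5.84, 6.31 and 6.03 in sham. The WUSTL0717 libraries lay below all the others. *Reg3b* fell by 2.09 on the log2 scale (SE 0.35, limma adjusted p = 0.0273), but it passed in none of the 8 fits with 1 library left out (adjusted p between 0.0596 and 0.124).

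*Reg3g*, which encodes a lectin against Gram-positive bacteria, was at 3.11, 3.77, 3.48 and 3.53 with WUSTL0717 and at 5.24, 4.70, 5.39 and 5.39 with vehicle. Its groups did not overlap and it just missed the threshold (-1.71, SE 0.32, limma adjusted p = 0.0576). *Reg3b* and *Reg3g* share none of their 100-base stretches with another gene. Of 16 Reg and epithelial antimicrobial genes tested, 3 were lower and 0 higher at an unadjusted p under 0.05, the third being *Ltf*, lactoferrin, whose groups overlapped (-1.18, adjusted p = 0.471). The list median was -0.24.

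Several other genes were lower without overlap and did not pass. *Aldh4a1*, a mitochondrial enzyme of proline breakdown, was at 4.83, 4.51, 4.87 and 4.87 with WUSTL0717, at 6.73, 6.28, 8.48 and 7.28 with vehicle and at 3.39, 3.59 and 4.05 in sham (-2.42, SE 0.46, limma adjusted p = 0.059). The WUSTL0717 libraries thus lay between sham and vehicle. *Aldh1l1*, a folate enzyme, was between 5.16 and 6.10 with WUSTL0717, between 6.81 and 8.50 with vehicle and between 5.99 and 6.43 in sham (-1.83, adjusted p = 0.165). With 1 library left out, *Reg3g*, *Aldh4a1* and *Aldh1l1* passed in 0 of 8 fits (adjusted p up to 0.224, 0.216 and 0.432). Under 12 other settings of the scaling, filter, pseudocount, model or groups fitted, *Reg3g* passed in 6, *Aldh4a1* in 5 and *Aldh1l1* in 3.

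**Figure D4:**
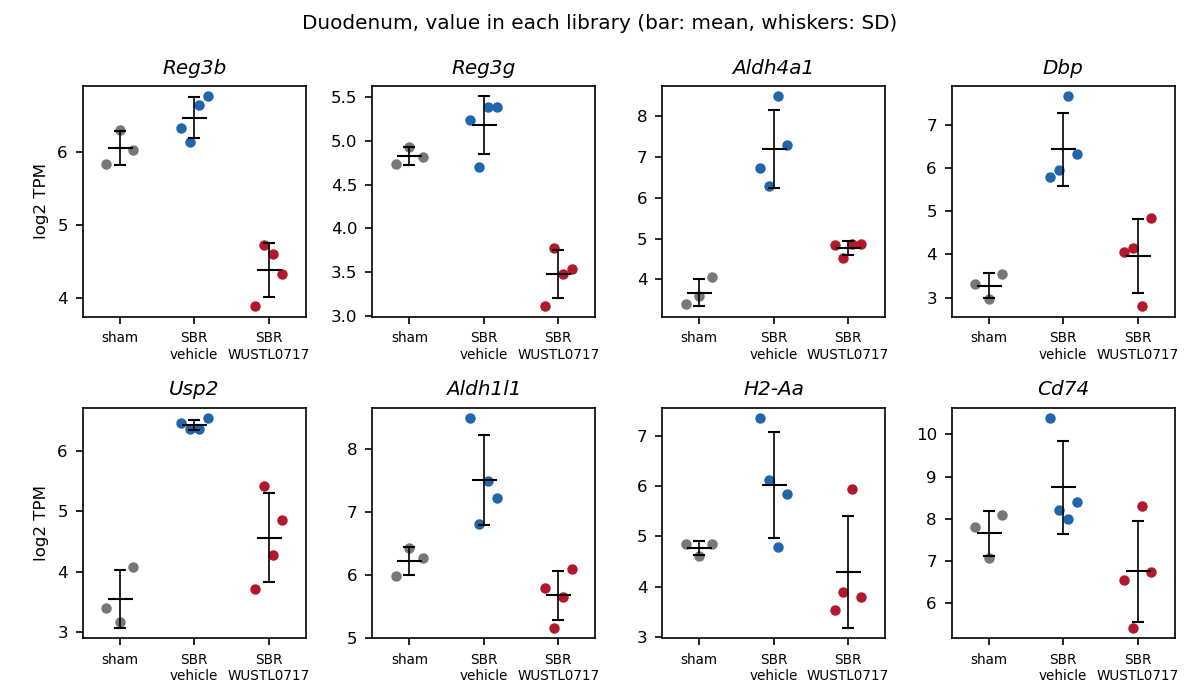
Log2 TPM of 8 genes in each duodenal library (points), by group on the x axis, with the mean (bar) and 1 SD (whiskers). Axes differ between genes and do not start at 0. *Reg3b*, *Reg3g*, *Aldh4a1*, *Dbp*, *Usp2* and *Aldh1l1* show WUSTL0717 libraries below all vehicle libraries, whereas *H2-Aa* and *Cd74* overlap through WUSTL0717 library 3.

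No gene of the circadian clock passed. Of 17 tested, 0 were called, 7 were lower and 1 higher at an unadjusted p under 0.05, and the median was -0.92. *Dbp*, a transcription factor of the clock's output, was at 4.06, 4.15, 2.80 and 4.83 with WUSTL0717, at 5.78, 5.96, 7.65 and 6.33 with vehicle and at 3.30, 2.96 and 3.54 in sham (-2.47, SE 0.51, limma adjusted p = 0.0911). *Usp2*, a deubiquitinase that cycles with it, was nearly constant with vehicle (6.46, 6.37, 6.36 and 6.55) and lay between 3.71 and 5.42 with WUSTL0717 (-1.87, adjusted p = 0.126). *Tef* (-1.52, adjusted p = 0.293) and *Ciart* (-1.94, adjusted p = 0.256) were lower and *Arntl*, the core activator, was higher (0.70). The labels give no hour of collection, and its part in these values was not tested.

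MHC class II genes had the lowest median of any list. Of 8 tested, 0 were called, 6 were lower at an unadjusted p under 0.05 and all 8 log2 fold changes were below 0, with a median of -1.49. *Cd74*, the invariant chain, was at 6.55, 5.41, 8.31 and 6.73 with WUSTL0717 and at 10.39, 8.19, 7.99 and 8.40 with vehicle (-1.99, SE 0.67, limma adjusted p = 0.602). *H2-Aa*, a class II chain, was at 3.55, 3.90, 5.95 and 3.79 with WUSTL0717 and at 7.35, 6.11, 4.78 and 5.85 with vehicle (-1.73, adjusted p = 0.671). WUSTL0717 library 3 overlapped the vehicle group in both. The 6 markers tested of B and plasma cells, which carry class II molecules at the B cell stage, also had log2 fold changes below 0, with a median of -0.39 and 0 at an unadjusted p under 0.05. Their summed TPM was between 206 and 1379 with WUSTL0717 and between 341 and 1335 with vehicle, which overlap, and of the 8 macrophage and dendritic cell markers 5 were below 0. What part these cells have in the class II values was not tested. Among 23 interferon response genes, 0 were called, with 5 lower and 1 higher at an unadjusted p under 0.05 and a median of -0.51. *Ubd*, an interferon-induced ubiquitin-like gene, was between 1.00 and 3.49 with WUSTL0717, between 3.38 and 5.85 with vehicle and between 0.62 and 1.27 in sham (-2.32, adjusted p = 0.288).

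The same change was then compared with that in the ileum beyond the join, from 4 WUSTL0717 and 4 vehicle libraries, by testing the difference of the log2 fold changes in 14924 genes. The test takes duodenal and ileal libraries as independent, and its SEs and p-values rest on that, since libraries of one mouse could not be matched. Of these, 4 were called (0.0268%), all with a larger change in the duodenum, and 475 had an unadjusted p under 0.05 (3.18%). *Cyp4a31* differed by 3.01 between regions (SE 0.38, limma adjusted p = 0.00105), *Ephx1* by 3.50 (SE 0.53, adjusted p = 0.0103), *Acot1* by 3.16 (SE 0.50, adjusted p = 0.0112) and *Ugt1a9* by 2.49 (SE 0.44, adjusted p = 0.0424). The calls for *Cyp4a31*, *Ephx1* and *Acot1* held in all 16 fits that left out 1 of the 16 libraries. The call for *Ugt1a9* held in 3 of the 16 (adjusted p up to 0.158, without ileal vehicle library 4).

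In the ileum *Ephx1* was at 5.44, 6.60, 5.62 and 5.64 with WUSTL0717 and at 5.40, 5.10, 6.06 and 5.64 with vehicle, a log2 difference of 0.27. *Acot1* was at 2.31, 2.42, 2.80 and 2.52 against 2.18, 1.84, 1.68 and 3.00, a difference of 0.34. Both sets overlap. Ileal *Cyp4a31* lay between 1.33 and 1.57, with 5 of the 8 libraries at the lowest value that the gene takes in the intestine, so an ileal change below that limit could not be seen. Ileal *Ugt1a9* lay between 1.16 and 1.56 with WUSTL0717 and between 1.20 and 1.56 with vehicle, close to its lowest intestinal value of 1.16, so the same limit may hold for it.

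The lists were also compared between the regions. The median log2 fold change of mitochondrial fatty acid oxidation was 1.52 in the duodenum and 0.13 in the ileum, with an unadjusted p under 0.05 for the difference in 13 of 21 genes. For peroxisomal fatty acid oxidation the medians were 1.78 and 0.53 (6 of 17 genes). For ω-hydroxylation the medians were 2.41 and 0.06 (5 of 9 genes). The ileal 0.06 was the value of *Cyp4a31*, which was at its lowest intestinal value in 5 of the 8 ileal libraries. An ileal change below that limit could not be seen. For conjugation and aldehyde or epoxide detoxification the medians were 1.33 and 0.42 (10 of 26 genes). For the other LXR targets of sterol and phospholipid handling they were 0.68 and 1.68 (3 of the 8 tested). For the 4 sterol exporters they were 2.18 and 2.64 (1 of 4 genes), and *Abca1* changed by 3.55 and 2.79 (difference 0.76, SE 0.62, limma adjusted p = 1). *H2-Q10* changed by 2.74 and 2.78. *Apoc1* was among the genes with the larger change in the ileum, 3.62 against 1.00 (difference -2.62, SE 0.67, adjusted p = 0.59), and *Apoa1* changed by 2.34 in the ileum against 0.63 (adjusted p = 1). Of the 38 genes that rose in the duodenum, 37 had an ileal log2 fold change above 0, and 28 of the 37 called genes that were tested between regions had an unadjusted p under 0.05 for the difference. These genes were chosen for their duodenal change, so their duodenal values tend to be the larger ones.

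**Figure D5:**
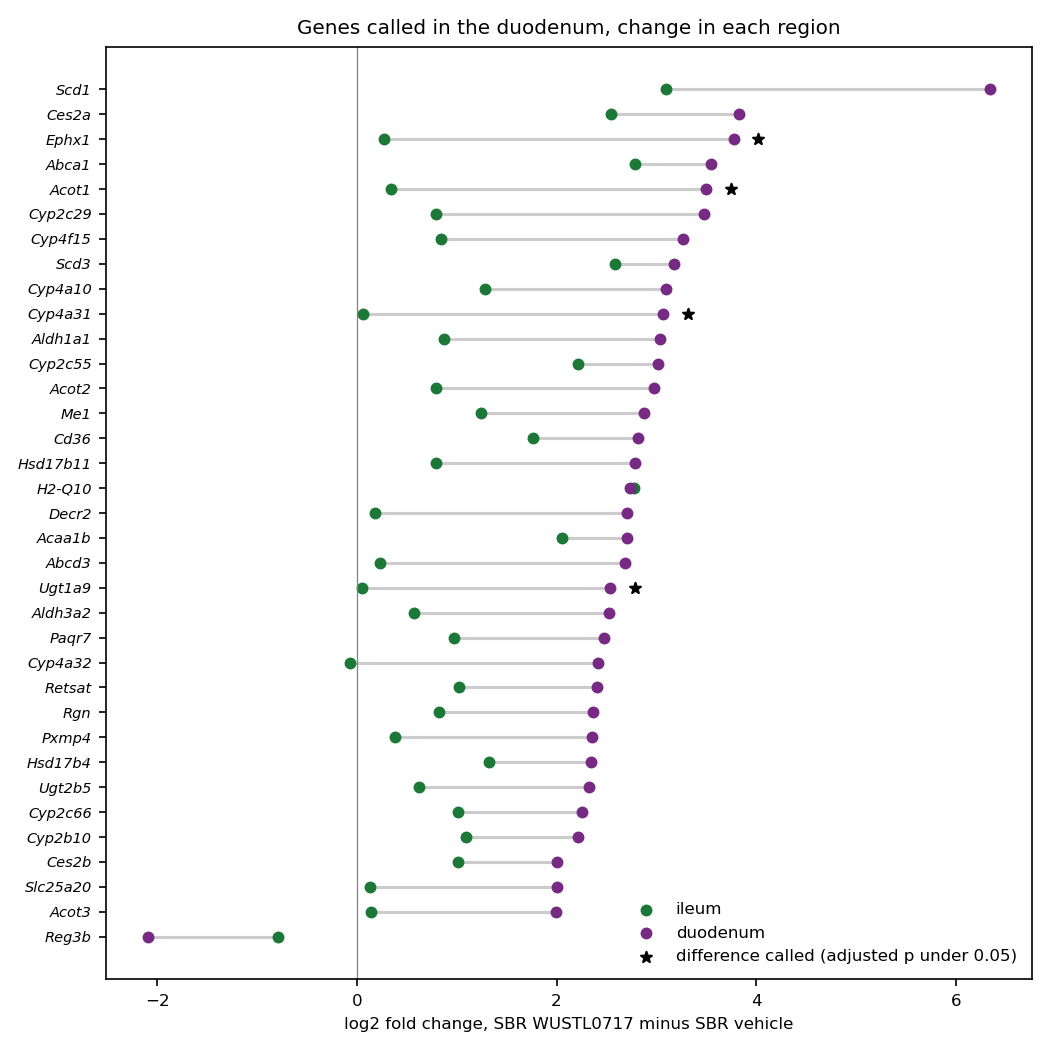
Log2 fold change (x axis, SBR WUSTL0717 minus SBR vehicle) of the genes called in the duodenum and named in the text, in the duodenum (purple) and in the ileum (green), ordered by the duodenal value. Stars mark the 4 genes whose difference between regions was called, *Ephx1*, *Acot1*, *Cyp4a31* and *Ugt1a9*, and the pair of points for *H2-Q10* nearly coincide.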

How the data were processed

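RNA sequencing of total RNA depleted of ribosomal RNA was used for duodenum, ileum and liver, 40 libraries in all. The authors aligned reads with STAR to GRCm38, counted genes with featureCounts, and deposited log2 TPM values after ComBat batch correction. No deposited comparison columns were used, and depth is unknown, so no interval from counting was possible. Libraries were grouped by their titles, and p-values measure only the spread between these libraries. The members and gene lists were chosen with earlier results of these data known. The 3 duodenal groups were fitted with limma 3.58.1 (R 4.3.3) with a variance trend on genes with a mean of at least 1, and p-values were adjusted by Benjamini-Hochberg (threshold 0.05). The difference between regions was a contrast of a fit over duodenal and ileal groups, likewise adjusted. Genes were named by rank among called and uncalled genes, by list and by a set of LXR and Reg3 genes. *Fabp1*, *Fabp2*, *Sis*, *Muc6*, *Tff2*, *Arntl*, *Cyp4a14* and the predicted genes were chosen after their values were seen. The variance model, scaling, filter, threshold and left-out libraries were varied. Simulated data had independent normal values, with 100 genes changed by 2 and 100 by 3 on the log2 scale, drawn from genes with a mean of at least 2. With 15093 genes, the duodenal fit recovered 38% of genes changed by 2 and 81% of those changed by 3, with 4 false calls. For the regions, with 14924 genes, it recovered 28% and 78%, with 8 false calls. More genes passed there than in the deposited data, where the regions gave 4 calls. This eases the adjusted threshold, so the rates and false calls do not carry over to the deposited data. A few genes of the fit are not reported here.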

Additional observations from a re-analysis of the deposited data

Results flagged for a closer look

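In 17 of 248 groups of 4 libraries, 1 library stood apart from the other 3 for a named gene, and chance alone gives this in about 1 in 20 groups. All values are log2 TPM.

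Among the genes that rose, *Scd1* was highest in WUSTL0717 library 4 (12.83, next 11.58), and so was *Acaa1b* (11.62, next 10.60). *Abca1* was highest in vehicle library 3 (4.12, next 2.70). *Rgn* was lowest in vehicle library 4 (4.97, next 5.48).

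WUSTL0717 library 2 was lowest for *Aldh4a1* (4.51, next 4.83), *H2-D1*, a class I antigen-presenting molecule (7.35, next 9.28), and *Junb*, an immediate early gene (4.60, next 6.91). It was highest for *Slc5a1* (6.58, next 6.25). WUSTL0717 library 3 was lowest for the clock output genes *Ciart* (0.73, next 1.94) and *Tef* (3.88, next 4.88) and highest for *H2-Aa* (5.95, next 3.90). *Mylip* was highest in WUSTL0717 library 1 (4.36, next 3.24), and *Anpep*, a brush border peptidase, in WUSTL0717 library 4 (6.62, next 6.28).

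Vehicle library 3 was lowest for *Ces1d* (2.43, next 4.03) and highest for *Cat*, catalase (9.49, next 8.49). Vehicle library 1 was highest for *Pfkl*, a glycolytic enzyme (5.47, next 4.53), and for *Fth1*, ferritin heavy chain (11.28, next 10.85).

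The change with WUSTL0717 was larger in the duodenum than in the ileum by a test of the difference itself for *Cyp4a31* (3.01), *Ephx1* (3.50), *Acot1* (3.16) and *Ugt1a9* (2.49), on the log2 scale. The call for *Ugt1a9* held in 3 of the 16 fits with 1 library left out (limma adjusted p up to 0.158), and *Cyp4a31* was at its lowest intestinal value in 5 of the 8 ileal libraries after resection, so a lower ileal level could not be seen.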

How the results depend on the processing

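The count of 39 called genes stayed within 1.5 times under 7 alternatives (33 to 56 genes). It was 17 under quantile normalization (15 higher and 2 lower), 85 with library weights, 11 with the compared groups alone and 20 after rescaling without the 10 most abundant RNAs, of which 15 were among the 39. The count was 596 at an unadjusted p with a 2-fold change (443 higher and 153 lower). Leaving out 1 library gave 7 to 28. Of the 38 genes that rose, all kept a log2 fold change above 0 under quantile normalization, centring, rescaling, the block and the compared groups alone. With the replicate number as a block the count was 8, and for the regions 1. Same-numbered libraries correlated at 0.31, 0.06, -0.05 and 0.14, and differently numbered ones between -0.155 and 0.139. The value for the libraries numbered 1 was the highest of all and the others lay in that range. The numbers were not taken to pair the libraries. The 4 genes that differed between regions became 1 with a filter at a mean of 3, 2 with a pseudocount of 0.1, 2 under quantile normalization, 11 with library weights and 444 at an unadjusted p with a 2-fold change, and 3 to 4 with 1 library left out. Genes without overlap numbered 303 with a filter at a mean of 3, which keeps fewer genes, 905 after rescaling, and 612 to 1206 with 1 library left out. The left-out counts cover the same genes, so leaving out a library could only keep or raise the number without overlap. The cause of the other shifts was not tested. Direction turned for *Apoa1* under quantile normalization (-0.30) and for *Nr1h2* with library weights (0.22) and with 1 library left out (-0.51 to 0.28, above 0 without WUSTL0717 replicate 2 and, at 0.15, without vehicle replicate 1). The medians of 9 lists changed sign over the alternatives, all of them between -0.18 and 0.24 in the values as reported. Unknown depth leaves low genes without a stated precision.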

Other observations

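Immediate early genes, which respond within minutes to stimuli and to handling, were lower in 3 of 12 cases at an unadjusted p under 0.05 and higher in 0, with 0 called and a median of -0.41. *Socs3*, a feedback inhibitor of cytokine signalling, differed by -1.88 between WUSTL0717 and vehicle. Among 16 genes of glucose and pyruvate metabolism, 0 were called, 3 were higher and 2 lower at an unadjusted p under 0.05, and the median was 0.10 (from -0.33 to 0.39 over the alternatives). The higher values were those of *Pdk4* (2.40), *G6pc*, the last enzyme of glucose release (2.32), and *Pfkl*, a glycolytic enzyme (1.13). The lower values were those of the fructose transporter *Slc2a5* (-1.28) and the glucose transporter *Slc5a1* (-1.06).

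The enteroendocrine markers were the cell type list whose summed TPM did not overlap between groups, at 52.5 to 69.1 with WUSTL0717 and 48.0 to 52.3 with vehicle. Their median log2 fold change was 0.22, with 0 of 8 genes at an unadjusted p under 0.05. Sums for stem, goblet and Paneth cell markers overlapped between the groups.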
